A study of Rattus norvegicus with 8 samples.

Results

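The glutathione transferases outside the alpha, mu and pi classes were examined in rat liver after D3T, in 7 genes: the theta-class Gstt1 and Gstt2, the kappa-class Gstk1, the omega-class Gsto1 and the microsomal Mgst1, Mgst2 and Mgst3. A probe set is a group of short array probes that together read 1 transcript, and members were all probe sets whose only gene symbol was one of 8 named genes, which gave 10 of the 8740 probe sets that are not controls. The zeta-class gene Gstz1, the other gene in the rule, had no probe set with its symbol alone and was not analysed here. The samples were snap-frozen livers of 8 male Fischer 344 rats fed AIN 76A chow, given the age 6 with no unit in the labels, with 1 Affymetrix RG-U34A array per rat. The D3T group comprised 4 rats gavaged with 3H-1,2-dithiole-3-thione at 0.3 mmol per kg body weight, in saturated sucrose, on days 1, 3 and 5. The vehicle group comprised 4 rats gavaged with 0.2 ml of saturated sucrose, on the same days for replicates 1, 3 and 4, while the labels of vehicle replicate 2 name no days. The single comparison was D3T against vehicle.

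Glutathione transferases join the tripeptide glutathione to electrophilic compounds, which marks these for breakdown and export. The theta and omega enzymes are mainly soluble, the kappa enzyme sits in mitochondria and peroxisomes, and the microsomal enzymes are an unrelated family of membrane proteins that also reduce lipid peroxides. Dithiolethiones such as D3T are known to induce glutathione transferases in rodent liver through the transcription factor encoded by Nfe2l2, which acts at a DNA motif called the antioxidant response element.

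The start-site regions of the members were examined for that motif. The RefSeq promoter table of rat build GRCr8, with 250 bases before and 50 after each start, held 4 of the 7 measured genes, Gstk1, Gsto1, Mgst1 and Mgst3. Of these, Mgst1 and Gstk1 had a probe set that rose, and they are printed 5' to 3' on the + strand, with capitals marking GC boxes (GGGCGG or its reverse complement).
Mgst1 (chr4:172760680-172760979): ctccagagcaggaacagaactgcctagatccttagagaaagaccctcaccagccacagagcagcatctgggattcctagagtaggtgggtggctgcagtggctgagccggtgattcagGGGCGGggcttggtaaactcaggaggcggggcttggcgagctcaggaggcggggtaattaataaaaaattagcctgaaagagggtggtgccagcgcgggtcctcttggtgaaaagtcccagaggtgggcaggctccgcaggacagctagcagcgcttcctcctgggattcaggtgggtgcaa
Gstk1 (chr4:72085364-72085663): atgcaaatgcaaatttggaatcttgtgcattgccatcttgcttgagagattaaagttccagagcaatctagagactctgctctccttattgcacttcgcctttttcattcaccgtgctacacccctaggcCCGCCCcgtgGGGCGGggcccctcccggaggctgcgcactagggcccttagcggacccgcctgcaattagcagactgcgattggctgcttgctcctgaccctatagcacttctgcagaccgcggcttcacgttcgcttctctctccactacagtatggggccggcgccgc
The Mgst1 window held 1 GC box and the Gstk1 window 2, while Gsto1 had 1 and Mgst3 had 2. A GC box on either strand was present in 33.1% of all 33469 promoters of the same length. The core of the antioxidant response element, searched as TGACNNNGC on both strands, was found in none of the 4 windows and in 12.1% of all promoters. The window of Gstz1, whose transcript was not measured, held 1 such core (GCCCCGTCA, on the - strand, at -231 from the start). TATAAA on either strand was found in none of the 4 and in 14.2% of all. A letter match is a description of the sequence only.

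D3T-treated livers had higher transcripts of Gstt1, Gstt2, Mgst1 and Mgst2, and of Gstk1 by 1 of its probe sets, at 1.36-fold to 1.90-fold. The Mgst1 rise was partly shared by equally bright probe sets, since all 42 others of like signal changed upward (median log2 0.36). When every array was given the same distribution of signals, Mgst1 went from 0.56 to 0.22 on the log2 scale. It then missed the threshold (limma adjusted p = 0.0658). Of the 10 member probe sets 6 rose, none fell and 4 did not pass, by limma with a Benjamini-Hochberg adjusted p under 0.05, and at an unadjusted p under 0.05 also none was lower. Over all 5244 probe sets tested, 4.20% were higher and 6.48% lower by the same rule (10.7% in all). All 10 members were among those tested, the lowest member signal on any array being 823, far above the floor of 20.3 applied to low values. The median log2 fold change was 0.47 over the 10 members and 0.02 over all probe sets tested. The D3T arrays lay wholly above the vehicle arrays for 5 of the 10, and wholly below them for none. Of all tested probe sets 7.89% lay wholly above and 11.3% wholly below (19.2% in all). The changes were modest in size, since 444 probe sets on the array had a larger absolute log2 fold change than Mgst2, the member with the largest. The count of 6 was the same without vehicle replicate 2 and 4 without D3T replicate 2. It was 3 without vehicle replicate 1, D3T replicate 1 or D3T replicate 3, and 2 without vehicle replicate 3, vehicle replicate 4 or D3T replicate 4.

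**Figure D1:**
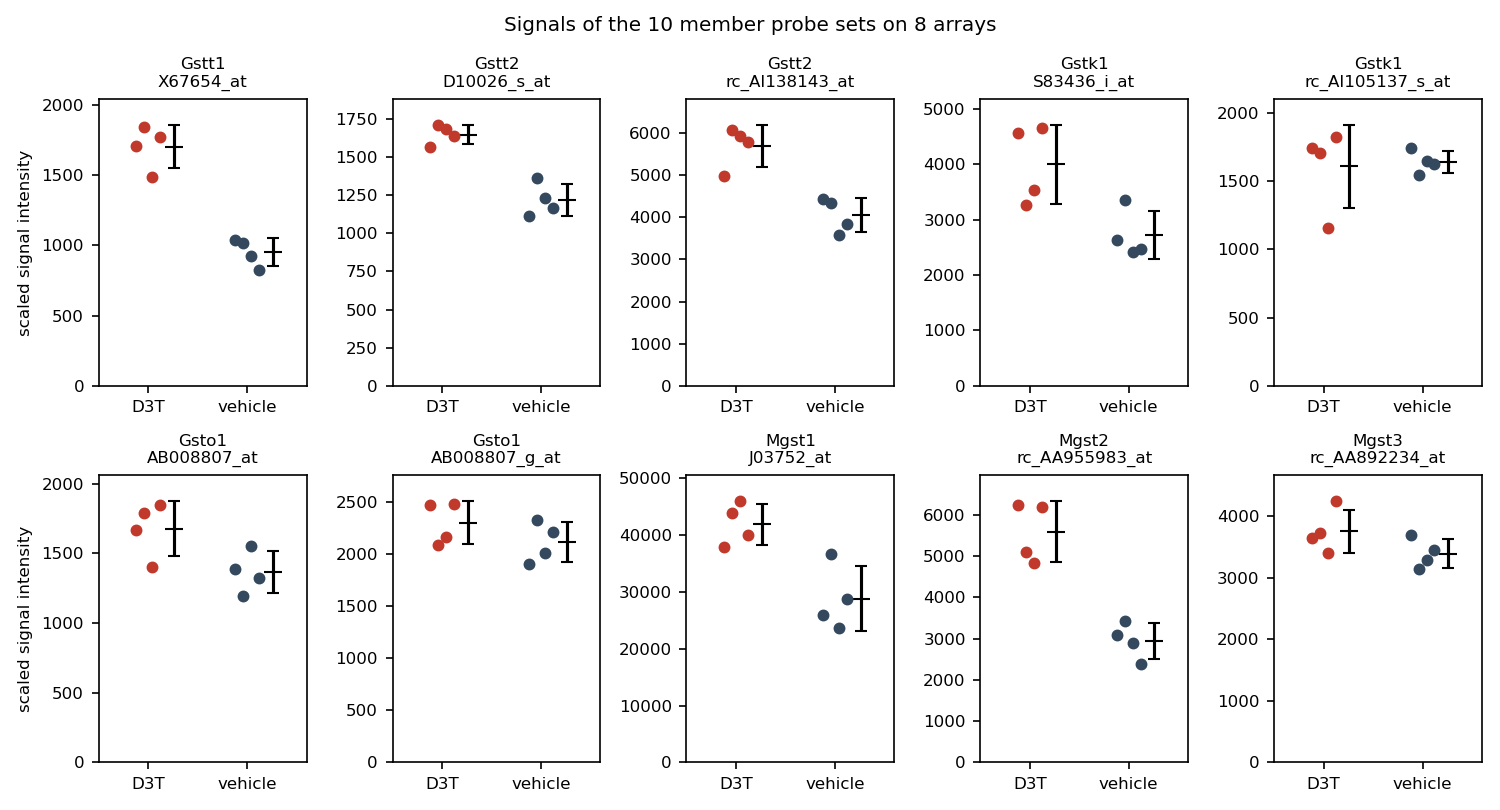
Scaled signal intensity (linear axis from 0) of each of the 10 member probe sets on every array, with 4 D3T arrays on the left and 4 vehicle arrays on the right of each panel. Points are arrays and the bar gives mean and SD (n = 4 each); the groups do not overlap for Gstt1, both Gstt2 probe sets, Mgst1 and Mgst2.

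Gstt1 conjugates small compounds such as halogenated alkanes. Its probe set (X67654_at) read 1706, 1847, 1488 and 1771 in D3T livers, against 1040, 1017, 923.1 and 823 in vehicle livers. Every D3T liver was above every vehicle liver, and the lowest D3T array was replicate 3. Means were 1703 ± 154.8 in D3T and 950.8 ± 99.1 in vehicle livers (SD, n = 4 each), a rise of 1.79-fold (log2 fold change 0.84 ± 0.13 SE, 95% confidence interval 0.56 to 1.12, limma adjusted p = 0.00338). Gstt1 passed in 8 of 8 fits without 1 array.

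Gstt2, the other theta-class enzyme, is known for cleaving aryl sulfate esters and had 2 probe sets, which moved alike. One (rc_AI138143_at) read 4964, 6066, 5929 and 5790 in D3T livers and 4418, 4323, 3567 and 3845 in vehicle livers. The groups did not overlap, with D3T replicate 1 the nearest to vehicle. This was a rise of 1.41-fold (log2 0.50 ± 0.11 SE, limma adjusted p = 0.023). The other (D10026_s_at) read 1565, 1707, 1681 and 1635 in D3T livers and 1113, 1359, 1231 and 1166 in vehicle livers. It rose 1.36-fold (log2 0.44 ± 0.11 SE, limma adjusted p = 0.0312), again with no overlap and with a D3T spread of 62.3 (SD, n = 4) around 1647. The calls were less firm than that of Gstt1: without 1 array rc_AI138143_at passed 5 of 8 times (highest adjusted p 0.0706) and D10026_s_at 1 of 8 times (highest 0.0843), and D10026_s_at kept its call only without vehicle replicate 2.

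In the RefSeq gene table Gstt2 and Gstt1 lie near each other, with 2 genes listed between them, Rps28-ps4 and a further theta gene, Gstt4. Neither Gstt3 nor Gstt4 had a probe set with its symbol alone, so cross-reaction of the theta probe sets with these relatives was not tested. The log2 difference between Gstt1 (X67654_at) and Gstt2 (rc_AI138143_at) was -1.74 ± 0.19 in D3T and -2.09 ± 0.11 in vehicle livers (SD, n = 4 each). Its shift of 0.35 on the log2 scale had an exact two-sided permutation p of 0.0571 (adjusted 0.133 over the 7 such pairs compared). With 4 against 4 arrays, 1 pair alone could not pass after this adjustment. All 7 pairs were added after the values were seen.

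Gstk1, the mitochondrial and peroxisomal transferase, gave different readings from its 2 probe sets. S83436_i_at read 4554, 3254, 3531 and 4650 in D3T livers and 2640, 3355, 2421 and 2467 in vehicle livers. The groups overlapped, because vehicle replicate 2 lay above D3T replicate 2. The mean was 3997 ± 708.5 in D3T and 2721 ± 433.1 in vehicle livers (SD, n = 4 each), 1.46-fold higher (log2 0.55 ± 0.16 SE, limma adjusted p = 0.0471). This call, close to the threshold, held in 2 of the 8 fits that left out an array (highest adjusted p 0.124), those without vehicle replicate 2 and without D3T replicate 2.

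The other Gstk1 probe set (rc_AI105137_s_at) read 1743, 1701, 1158 and 1822 in D3T livers and 1740, 1546, 1649 and 1625 in vehicle livers. D3T replicate 3 lay below all the other arrays, which otherwise overlapped. Its log2 difference was -0.05 ± 0.15 SE (95% confidence interval -0.38 to 0.28, limma adjusted p = 0.84), and 0.10 without D3T replicate 3. Between the probe sets the log2 difference was 1.32 ± 0.28 in D3T and 0.72 ± 0.27 in vehicle livers (SD, n = 4 each; exact two-sided permutation p = 0.0571, adjusted 0.133 over 7 pairs). With the mean of both probe sets the log2 fold change of Gstk1 was 0.25 and did not pass (limma adjusted p = 0.225). A name ending in _i_at marks a set with fewer probes than the array's design asked for, and one ending in _s_at marks probes that may match more than 1 transcript.

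Gsto1, the omega-class enzyme that reduces dehydroascorbate and mixed disulfides, did not pass by either probe set. AB008807_at read 1670, 1789, 1403 and 1844 in D3T livers and 1389, 1195, 1555 and 1324 in vehicle livers. D3T replicate 3 lay within the vehicle range and the other D3T arrays above it. The log2 difference was 0.29 ± 0.13 SE (95% confidence interval 0.00 to 0.59, limma adjusted p = 0.166). AB008807_g_at read 2469, 2084, 2169 and 2483 in D3T livers and 1910, 2331, 2013 and 2209 in vehicle livers. These overlapped, with a log2 difference of 0.12 ± 0.12 SE (95% confidence interval -0.13 to 0.38, limma adjusted p = 0.505).

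Among the microsomal genes, Mgst2 had the largest change of all the members. Its product makes leukotriene C4 and reduces lipid hydroperoxides. The probe set (rc_AA955983_at) read 6233, 5092, 4823 and 6195 in D3T livers and 3086, 3424, 2882 and 2393 in vehicle livers. The groups were far apart, the lowest D3T liver lying above the highest vehicle liver. Means were 5586 ± 734 in D3T and 2946 ± 431.4 in vehicle livers (SD, n = 4 each), a rise of 1.90-fold (log2 0.93 ± 0.14 SE, 95% confidence interval 0.62 to 1.23, limma adjusted p = 0.00357). It passed in 8 of 8 fits without 1 array.

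Mgst1, an abundant enzyme of the endoplasmic reticulum and outer mitochondrial membrane of liver, had 1 probe set (J03752_at). It read 37850, 43753, 45850 and 39965 in D3T livers and 25959, 36701, 23707 and 28743 in vehicle livers. The groups did not overlap, but vehicle replicate 2 came close to the lowest D3T array. The rise was 1.47-fold (log2 0.56 ± 0.14 SE, 95% confidence interval 0.25 to 0.87, limma adjusted p = 0.0314). It passed in 1 of 8 fits without 1 array, that without vehicle replicate 2 (log2 0.68, adjusted p = 0.00796), and the highest adjusted p was 0.0901.

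The strongest array signals shifted as a body, and Mgst1 lay among them. Of the 42 other probe sets within 0.5 log2 units of its mean signal, 42 had a positive log2 fold change, with a median of 0.36, and 1 of them passed. Quantile normalization took that median to -0.02 and the log2 fold change of Mgst1 to 0.22 (limma adjusted p = 0.0658), so that Mgst1 no longer passed. The method gives every array the same distribution of signals, so it removes a shift of the strongest signals whatever its cause. The cause of the shift was not tested. For the other 9 member probe sets the like-signal medians were between -0.08 and 0.02 on the log2 scale. Gstt1 and Mgst2 had log2 fold changes of 0.92 and 0.90 after quantile normalization and passed (limma adjusted p = 0.00204 and 0.00533).

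**Figure D2:**
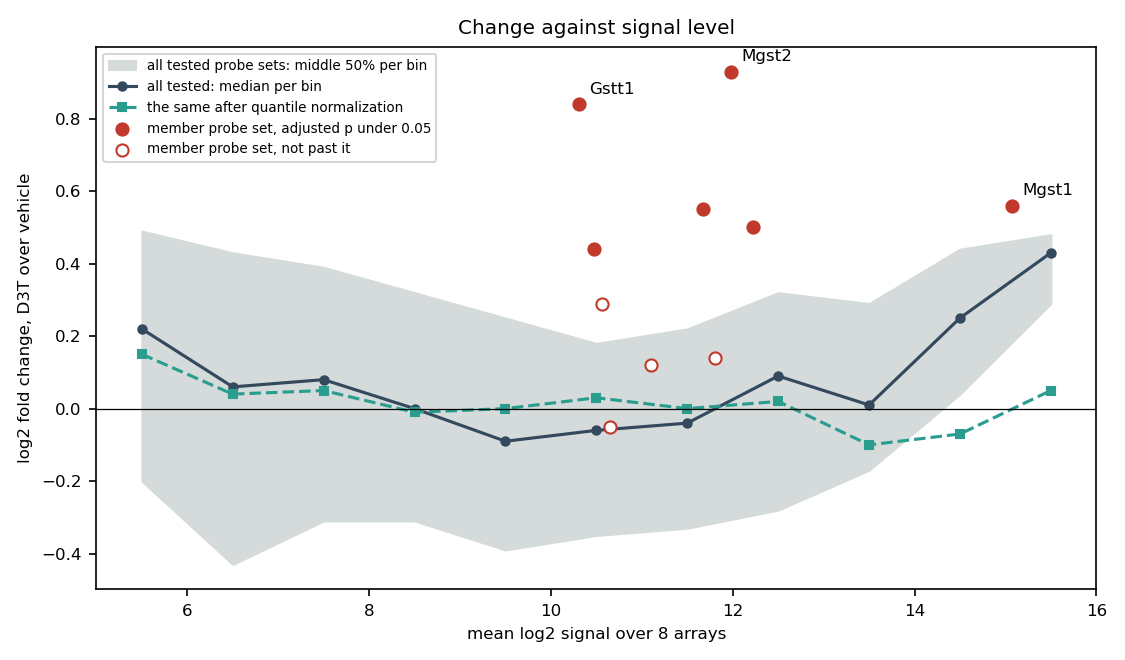
Log2 fold change, D3T over vehicle, against mean log2 signal over the 8 arrays. Circles are the 10 member probe sets (filled where adjusted p was under 0.05); the grey band and solid line give the middle 50% and median of all tested probe sets in bins 1 log2 unit wide, the dashed line the median after quantile normalization. The median rises to 0.43 in the bin of the 21 strongest probe sets, where Mgst1 lies, and Gstt1 and Mgst2 lie well above the band at their own levels.

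Mgst3, a microsomal enzyme with glutathione peroxidase activity, had 1 probe set (rc_AA892234_at) that did not pass. It read 3645, 3733, 3393 and 4237 in D3T livers and 3689, 3138, 3282 and 3457 in vehicle livers. D3T replicate 4 was the highest and the other arrays overlapped. The log2 difference was 0.14 ± 0.11 SE (95% confidence interval -0.10 to 0.38, limma adjusted p = 0.399), which leaves room for a rise of up to 1.31-fold. The RefSeq table also lists the related gene Mgst3l1, which had no probe set of its own.

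The microsomal genes were set against each other within each array, a comparison added after their values were seen. The log2 difference of Mgst2 over Mgst3 was 0.57 ± 0.14 in D3T and -0.21 ± 0.27 in vehicle livers (SD, n = 4 each), with no overlap. The shift of 0.78 had an exact two-sided permutation p of 0.0286, the smallest that 4 against 4 arrays allow, and 0.133 after adjustment over 7 pairs. Mgst1 over Mgst3 shifted by 0.41 (exact permutation p = 0.0857, adjusted 0.15) and Mgst2 over Mgst1 by 0.37 (exact permutation p = 0.171, adjusted 0.24). The 7 pairs also include the 3 pairs of probe sets of 1 gene, and members of different classes were not compared. With 4 against 4 arrays, at least 5 of the 7 pairs would have to reach the smallest p for any to pass after adjustment, so the adjusted values say nothing of whether the responses were alike.

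**Figure D3:**
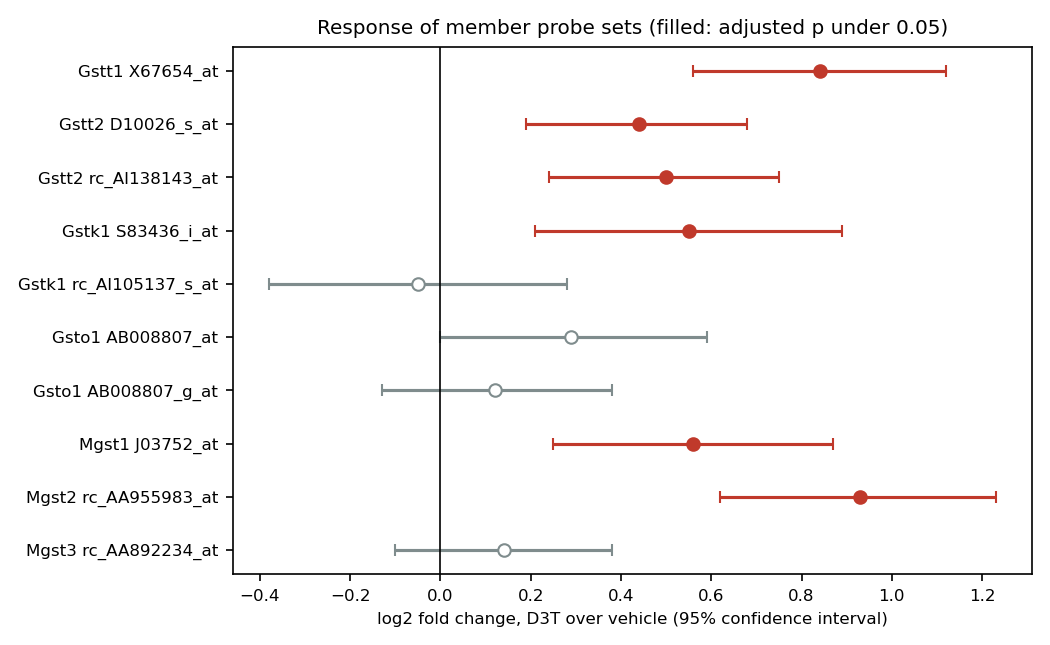
Log2 fold change, D3T over vehicle, of the 10 member probe sets with 95% confidence intervals from limma. Filled points passed an adjusted p of 0.05. The intervals of Gstt1 (0.56 to 1.12) and Mgst2 (0.62 to 1.23) lie highest. Those of the second Gstk1 probe set, Gsto1 AB008807_g_at and Mgst3 span 0, and that of Gsto1 AB008807_at begins at 0.00.

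The order of the arrays within each group was counted over the 10 member probe sets. For each probe set, 1 array of a group must be highest and 1 lowest. D3T replicate 4 was the highest D3T array for 5 of the 10 probe sets and D3T replicate 3 the lowest for 5. D3T replicate 3 was also the highest for 1. Vehicle replicate 2 was the highest vehicle array for 5 and the lowest for 3. The median deviation from the group mean over the members was 0.13 for D3T replicate 4, -0.15 for D3T replicate 3 and 0.12 for vehicle replicate 2 on the log2 scale. Over all tested probe sets the corresponding medians were 0.02, 0.00 and 0.03.

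A measure of RNA quality moved with the groups, although not past its test. The 3'/5' signal ratio of the actin control probe sets, which rises as RNA breaks down, was 1.33 ± 0.122 in D3T and 1.54 ± 0.0698 in vehicle livers (SD, n = 4 each; exact two-sided permutation p = 0.0571, the smallest possible being 0.0286). The Gapdh ratio was 1.59 ± 0.279 in D3T and 1.87 ± 0.212 in vehicle livers (SD, n = 4 each; exact permutation p = 0.114). With the actin ratio as a covariate none of the 10 member probe sets passed in limma, where 5 had an unadjusted p under 0.05, and 35 of all 5244 passed. The fitted log2 fold changes were then 0.72 for Gstt1, 0.69 for Mgst2, 0.71 for Mgst1, 0.42 and 0.58 for Gstt2 (D10026_s_at and rc_AI138143_at) and 0.33 for Gstk1 (S83436_i_at), with adjusted p from 0.154 for Gstt1 to 0.57 for Gstk1. In that fit the SE was 0.2 for Gstt1 and 0.21 for Mgst2, against 0.13 and 0.14 without the covariate. The part of RNA quality in the rises was not tested beyond this.

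**Figure D4:**
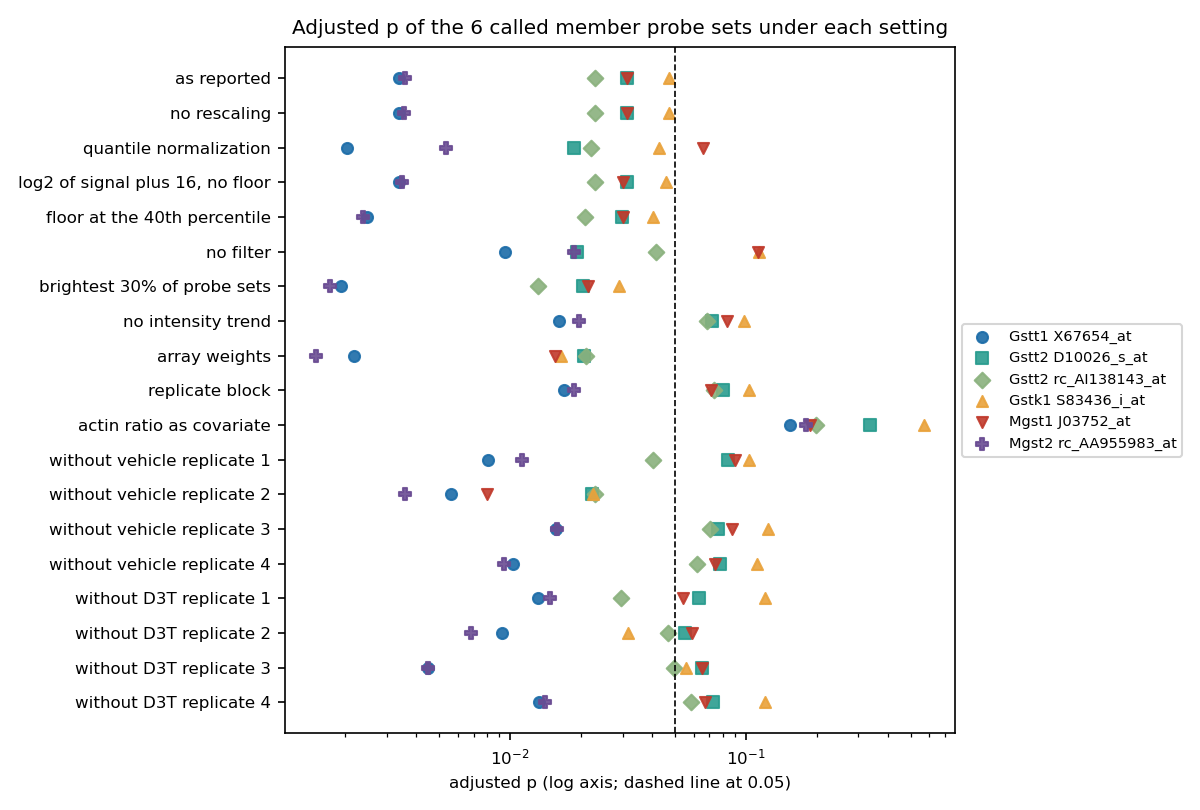
Adjusted p (log axis) of the 6 member probe sets that passed, under each processing setting and without each array; the dashed line is at 0.05. Gstt1 and Mgst2 stay left of the line in every setting shown except the actin ratio as a covariate, whereas the other 4 lie on both sides of it.

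The tissue and the other cell types of liver were checked by marker lists. All 5 hepatocyte markers were measured, and the signal of the main albumin probe set was 53452 ± 8971 in D3T and 39143 ± 8877 in vehicle livers (SD, n = 4 each; log2 0.46, limma adjusted p = 0.106). None of the 5 passed in limma, 3 had a positive log2 fold change, 2 had an unadjusted p under 0.05 (Alb and Ttr, both higher) and the list median was 0.13. With quantile normalization, which evens out the strongest signals by design, the log2 fold change of the main albumin probe set was 0.06 (limma adjusted p = 0.557). Summed hepatocyte marker signals ran between 244380 and 338207 in D3T and between 184307 and 287032 in vehicle livers. These sums and those below take in every probe set of the listed genes, tested or not. Of 3 Kupffer cell and macrophage genes tested 1 fell (C1qb). All 3 had an unadjusted p under 0.05, C1qb and Lyz2 being lower and Ptprc higher, and the summed signals of the list were 2185 to 2909 in D3T and 3550 to 4305 in vehicle livers. Of 3 stellate genes tested 1 fell (Col3a1), 2 had an unadjusted p under 0.05 (Col3a1 and Col1a2, both lower) and 1 had a positive log2 fold change, with sums of 2533 to 2981 in D3T and 2971 to 5275 in vehicle livers. Erythroid sums were 7124 to 9940 in D3T and 10707 to 15142 in vehicle livers. Of 2 erythroid genes neither passed in limma, with 1 lower at an unadjusted p under 0.05. Neither of 2 endothelial genes tested passed (list sums of 243.5 to 458.9 in D3T and 367.8 to 525.6 in vehicle livers). Nor did either of 2 cholangiocyte genes tested (list sums of 290.9 to 416.7 in D3T and 243.6 to 407.6 in vehicle livers). Of these tested genes 0 had an unadjusted p under 0.05 in limma. The 2 neutrophil genes were too dim to be tested (sums of 17.9 to 34.6 in D3T and 14.2 to 38.1 in vehicle livers). No marker was listed at 0, S100a9 was at or below the floor on all arrays, and the part of cell composition in the member results was not tested. In bulk liver, fewer cells of a type and less RNA per cell cannot be told apart.

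The rest of the glutathione pathway was read from 1 probe set per gene, against 3.71% of 3150 genes higher and 5.84% lower with a median log2 fold change of 0.03. Among alpha, mu and pi transferases 4 of 7 genes rose and none fell, with a median of 1.20. Gsta3 and Gsta1, alpha-class enzymes, were 53.5-fold and 2.98-fold higher (limma adjusted p = 1.51e-06 and 0.000345), and the pi-class Gstp1 29.9-fold (6.37e-07). With the mean of its probe sets the log2 fold change of Gsta3 was 4.67, against 5.74 by the probe set chosen. Cross-reaction of the Gsta1 probe set (S72505_f_at) with the transcript of Gsta3 was not tested. In the members the corresponding count was 5 of 7 genes, with no change above 1.90-fold. Of 9 genes of glutathione synthesis, recycling and peroxidases 4 rose and none fell (median 0.40). They included Gpx2, a peroxidase, at 4.61-fold, Gsr, which recycles oxidised glutathione, at 2.27-fold, and Gclc, the catalytic subunit for glutathione synthesis, at 2.10-fold (limma adjusted p = 0.00684, 0.00146 and 0.0282). Gpx2 was dim, at 250.5 ± 71 in D3T and 57.4 ± 23.5 in vehicle livers (SD, n = 4 each). With the floor at the 40th percentile its log2 fold change was 1.81, against 2.2 as reported.

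Genes that act on glutathione conjugates moved both ways, with 1 of 6 higher and 1 lower (median 0.45). At an unadjusted p under 0.05 in limma there were 3, with Acy1 higher and Abcc2 and Anpep lower. Acy1, an aminoacylase, read 1615 ± 202.5 in D3T and 1102 ± 142.2 in vehicle livers and was 1.47-fold higher (limma adjusted p = 0.0309). The canalicular export pump gene Abcc2 fell to 984.3 ± 122.2 in D3T livers, against 1889 ± 297.9 in vehicle livers (SD, n = 4 each; log2 -0.93, limma adjusted p = 0.00513). Among 13 genes listed as targets of Nfe2l2, which share Gclc, Gclm, Gstp1 and Abcc3 with the lists above, 6 rose and none fell (median 0.59). Akr7a3, a reductase of aflatoxin aldehydes, and the quinone reductase gene Nqo1 were 16.5-fold and 3.44-fold higher (limma adjusted p = 7.98e-07 and 0.00115).

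Lists tied to single members were also counted. Beside Mgst2, none of 5 leukotriene and prostaglandin genes passed in limma (median -0.47, with 2 lower at an unadjusted p under 0.05). The brightest of them, the leukotriene A4 hydrolase gene Lta4h, had a log2 difference of -0.14 ± 0.12 SE (limma adjusted p = 0.459). Beside Gsto1, 2 of 4 genes of ascorbate synthesis and transport rose and 1 fell (median 0.28). Gulo, the last enzyme of ascorbate synthesis in the rat, read 4698 ± 835 in D3T and 7792 ± 1178 in vehicle livers (log2 -0.74, limma adjusted p = 0.0163). Ugdh, which makes UDP-glucuronate, was 1.92-fold and Akr1a1, an aldehyde reductase, 1.34-fold higher (limma adjusted p = 0.0397 and 0.0296). Beside the unmeasured Gstz1, an enzyme of tyrosine breakdown, none of 4 genes of that pathway passed in limma (median 0.01, with 1 higher at an unadjusted p under 0.05). The brightest of the 4, Hpd, had a log2 difference of 0.05 ± 0.11 SE (limma adjusted p = 0.775). Of the genes named from these lists as passing, Gsta3, Gstp1, Gsta1, Gpx2, Gsr, Abcc2, Gulo, Akr7a3 and Nqo1 also passed in 8 of 8 fits without 1 array. Gclc passed in 4 of these (not without vehicle replicate 1 or D3T replicates 1, 2 or 4). Acy1 passed in 3 (without vehicle replicates 2 or 4 or D3T replicate 3), Akr1a1 in 3 (without vehicle replicate 2 or D3T replicates 2 or 3) and Ugdh in 2 (without D3T replicates 2 or 3). With the actin ratio as a covariate Gsta3, Gstp1, Gsta1 and Akr7a3 passed, and the other 9 did not (limma adjusted p of at least 0.0802, the value for Nqo1), Ugdh having a log2 fold change of 0.16 there.

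**Figure D5:**
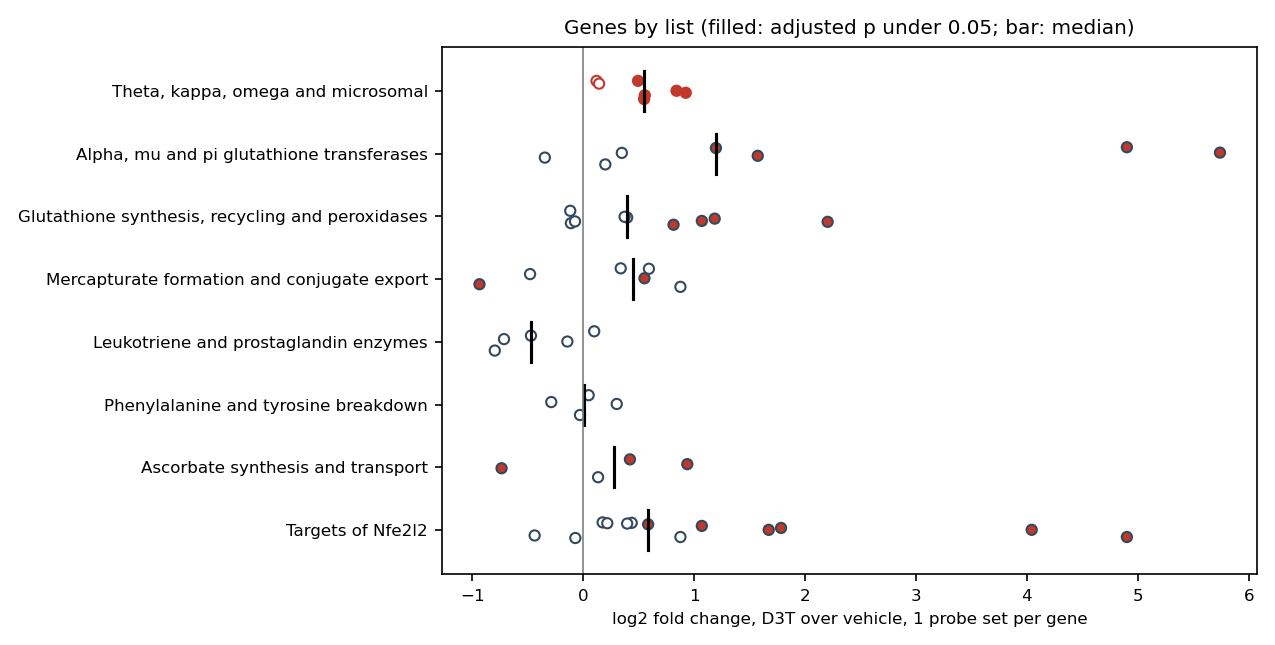
Log2 fold change, D3T over vehicle, of 1 probe set per gene for the 7 measured members (top) and 7 related gene lists; filled points passed an adjusted p of 0.05 and bars are medians. The members lie between 0.12 and 0.93, whereas single alpha, pi and Nfe2l2-target genes lie above 4.

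For each member gene that rose, the 2 genes with the nearest pattern were found by the root mean square difference of log2 signals over the 8 arrays, each less its vehicle mean. They were Car5a and Rhd for Gstt1 (0.139 for both), Tmem205 and Sec31a for Gstt2 (0.085 and 0.093), and Cryaa and Slc6a2 for Gstk1 (0.077 and 0.085). For Mgst1 they were Alb and Syngr1 (0.085 and 0.108), and for Mgst2 Alcam and Pax8 (0.137 and 0.138). They were chosen from all tested genes for likeness, which includes the group difference itself, so no test applies to them.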

How the data were processed

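The deposited values are intensities on a linear scale, made with MAS5 per the submitters' processing notes; not given in the sources used here are its version, scaling target and detection calls. The deposited 2% trimmed means lay between 500.9 and 501.0. Arrays carry no counts, so precision was set by their number and by the spread and signal level of each probe set.

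Signals were rescaled to a 2% trimmed mean of 500, raised to a floor of 20.3 (the 20th percentile) and log2 transformed. After leaving out 59 controls of 8799 probe sets, the brightest 60% (5244) were fitted with limma 3.58.1 in R 4.3.3 (intensity trend), with Benjamini-Hochberg adjustment over all of them, and the fit was tested on simulated data. Signals in the text are rescaled ones. Symbols came from the platform annotation (7006 probe sets with 1 symbol, 308 with several, 1426 with none), and all 10 members matched the RefSeq table of GRCr8. A gene was represented by its brightest tested probe set.

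Named were all members, up to 3 passing genes per list with the largest change (or the brightest), Alb, and 2 nearest genes per rising member. C1qb, Lyz2, Ptprc, Ttr, Col3a1, Col1a2, Anpep and the related genes without probe sets were named after values were seen. Members, lists and the actin covariate were chosen with earlier results of these data known. Alternatives covered scaling, floor, filter, variance model, array weights, a replicate block, the actin ratio, averaging a gene's probe sets and leaving out each array. Nothing in the labels says that replicates share a litter or day.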

Additional observations from a re-analysis of the deposited data

Results flagged for a closer look

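In groups of 4 arrays, 1 array stood apart from the other 3 in 3 of 76 groups of values examined, and chance alone flags about 1 group in 20. The Gstk1 probe set rc_AI105137_s_at read 1158 in D3T replicate 3, against 1701 to 1822 in the other D3T livers. The Gapdh 3'/5' ratio was 2.004 in the same array, D3T replicate 3, against 1.432 to 1.466 in the other D3T livers. Tmem205, named for its likeness to Gstt2, read 7969 in vehicle replicate 3, against 9455 to 9577 in the other vehicle livers.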

How the results depend on the processing

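Gstt1 and Mgst2 passed without any single array and in 9 of 10 other settings, failing with the actin ratio as a covariate, whereas Gstt2, Mgst1 and Gstk1 depended on the setting. Of the members 6 passed as reported; 0 passed with the actin covariate, 2 without the intensity trend and between 2 and 6 without 1 array. Over all probe sets 560 passed as reported, 309 with no filter, 333 without the intensity trend, 35 with the actin covariate and between 238 and 699 without 1 array. Of 44 listed pathway genes 15 were higher and 2 lower; with the actin covariate 6 were higher and 0 lower, and with no filter 1 was lower. The member median stayed between 0.44 and 0.51 over all scalings and arrays left out. The second Gstk1 probe set had a log2 value of 0.04 with quantile normalization and -0.12 to 0.10 without 1 array, Hpd -0.04 with quantile normalization and Lta4h 0.07 with the mean of its probe sets, none passing in any of these fits. The difference in response between the Gstt2 probe sets, -0.06, was 0.05 with quantile normalization and -0.14 to 0.01 without 1 array. The cause of these shifts was not tested. With the replicate number as a block 2 members and 290 probe sets in all passed; same-numbered arrays correlated at -0.198 to 0.063 in their deviations from the group means, so the numbers were not taken as pairs.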
